A study of Mus musculus with 16 samples.

Results

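The genes described here are Vdac1, Vdac2 and Vdac3, the voltage-dependent anion channels of the outer mitochondrial membrane, and Ghitm, also called Tmbim5, a Ca2+/H+ exchanger of the inner mitochondrial membrane. They were chosen by name, whatever their counts, and are 4 of the 25006 genes listed in the count files and 4 of the 12390 with enough counts to be tested. The counts are from RNA sequencing of mRNA pulled down with RiboTag, an epitope-tagged ribosomal protein, from dissected substantia nigra. All 16 mice carried DAT-Cre+/-, which drives Cre recombinase from the dopamine transporter gene. The labels give the 8 control mice no other allele, and the 8 MCU-KO mice were DAT-Cre+/- MCU fl/fl, so that Mcu, the pore subunit of the mitochondrial Ca2+ uniporter, was to be deleted in cells that express the transporter. The paper states that the RiboTag controls came from a separate cross, bred without MCU fl/fl mice. Differences due to the cross and to the loss of Mcu therefore cannot be told apart here. In both groups the tag came from an injected Cre-dependent AAV. The tissue was taken 30 days after injection at postnatal day 45, with 1 library per mouse. The comparison asks whether transcripts of channels before the uniporter, and of an exchanger beside it, differed between MCU-KO and control mice.

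VDAC channels are beta-barrel pores through which ATP, ADP, phosphate, metabolites and Ca2+ cross the outer mitochondrial membrane. Ca2+ that leaves the endoplasmic reticulum at contacts with mitochondria passes them before it reaches the uniporter in the inner membrane. Ghitm belongs to the TMBIM family, whose other members sit mostly in the endoplasmic reticulum, Golgi and lysosomes, and it exchanges matrix Ca2+ for protons. Hexokinase docks on VDAC1, VDAC2 is known for holding BAK at the membrane, and VDAC3 is known for its redox-sensitive cysteines.

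In the GENCODE M21 annotation of GRCm38, the build also called mm10, Vdac1 (ENSMUSG00000020402) lies on chromosome 11 from 52360860 to 52389397 on the plus strand. Vdac2 (ENSMUSG00000021771) lies on chromosome 14 from 21825238 to 21845879 on the plus strand, and Ghitm (ENSMUSG00000041028) lies on the same chromosome from 37120092 to 37135272 on the minus strand. Vdac3 (ENSMUSG00000008892) lies on chromosome 8 from 22577075 to 22593813 on the minus strand. The principal coding transcripts of Vdac1 and Vdac3 each have 9 exons and code for 283 amino acids. That of Vdac2 has 10 exons and codes for 295, and that of Ghitm has 9 exons and codes for 346. Aligned over 852 coding bases, Vdac1 and Vdac2 were 70.8% identical, Vdac2 and Vdac3 71.5%, and Vdac1 and Vdac3 66.0%. The longest run of identical bases at matched positions of any pair was 17, in Vdac1 and Vdac2.

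The start of the coding sequence shows the feature that sets Vdac2 apart, a longer amino-terminal end. The capitals mark the 36 bases of Vdac2, from coding base 8 to 43, with which the alignment paired no base of Vdac1. The Vdac2 stretch is spliced from exons between chr14:21831876-21832945 (plus strand), and the others lie within chr11:52374302-52374361 (plus) and chr8:22588733-22588792 (minus).
Vdac1: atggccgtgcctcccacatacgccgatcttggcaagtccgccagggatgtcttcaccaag
Vdac2: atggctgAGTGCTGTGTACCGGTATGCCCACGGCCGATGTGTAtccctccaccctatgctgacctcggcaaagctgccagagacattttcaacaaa
Vdac3: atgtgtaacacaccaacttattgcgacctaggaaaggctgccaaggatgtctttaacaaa

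A second stretch, inside a single exon of each gene, shows how far the isoforms differ over 90 bases, a length chosen for display. Capitals mark bases that differ from Vdac1, which were 16 of 90 in Vdac2 and 31 of 90 in Vdac3. The stretches lie at chr11:52376451-52376540 (plus), chr14:21837804-21837893 (plus) and chr8:22583587-22583676 (minus). They hold codon 73 of Vdac1, the glutamate known from hexokinase binding. It read gag in Vdac1, gag at codon 85 of Vdac2, and caa, a glutamine codon, at codon 73 of Vdac3.
Vdac1: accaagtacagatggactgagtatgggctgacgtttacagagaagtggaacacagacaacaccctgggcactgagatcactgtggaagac
Vdac2: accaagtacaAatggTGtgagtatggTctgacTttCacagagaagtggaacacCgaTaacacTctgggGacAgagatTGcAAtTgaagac
Vdac3: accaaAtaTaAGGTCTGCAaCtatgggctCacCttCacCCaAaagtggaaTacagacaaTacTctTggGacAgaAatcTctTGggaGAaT

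Against pseudogenes the sequences were less distinct. Of all stretches of 50 bases in its annotated transcripts, Vdac1 shared 1.41% with Gm15502 or Gm16102, Vdac2 shared 4.06% with Gm7832, and Vdac3 shared 12.8% with Vdac3-ps1, Gm7591 or Gm15970. Ghitm shared none with any other annotated gene. None of these pseudogenes is among the genes listed with counts, so they could not be analysed. The Vdac3 count in particular is uncertain by the reads that such stretches draw or lose. The last 25 bases of Vdac2 also overlap exons of Comtd1 on the opposite strand, which had 4735 counts over the 16 mice together. Whether counting used strand is not given in the sources used here.

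All 4 genes were abundant in both genotypes. Counts below are normalized counts, that is, counts divided by a size factor for the library. In control mice Vdac1 had 9156 at the lowest, 12747 at the median and 15905 at the highest, a mean of 12799 ± 2074 (SD, n = 8). By this measure Vdac1 stood above 98.3% of the genes tested. The control mice were spread widely for Vdac1, from control mouse 1 at the bottom to control mouse 8 at the top. Ghitm, with 11184 ± 1552 (SD, n = 8), stood above 98.0% of the genes tested, Vdac2, with 6029 ± 906, above 95.2%, and Vdac3, with 4243 ± 773, above 92.3%. Their control mice ranged from 9037 to 13073 for Ghitm, from 4553 to 7336 for Vdac2 and from 3518 to 5678 for Vdac3. Counting error for these genes was 0.859% to 1.49% of the mean in controls, against a spread of 13.9% to 18.2% between control mice.

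The VDAC isoforms are encoded by genes of unequal length, so their levels were compared per kilobase and within each mouse. Per kilobase of all annotated exons, Vdac1 had 4885 ± 791 normalized counts in controls, Vdac2 had 1264 ± 190 and Vdac3 had 783 ± 143 (SD, n = 8). Vdac1 was above Vdac2 in 8 of 8 control mice, with a mean log2 ratio of 1.95 ± 0.42 or 3.86-fold, and above Vdac3 in 8 of 8, with 2.64 ± 0.45 or 6.25-fold. Each had an adjusted p of 0.0078 in an exact two-sided sign-flip permutation test, the smallest that 8 mice allow. In MCU-KO mice the order was the same in 8 of 8 animals, with log2 ratios of 1.93 ± 0.20 for Vdac1 to Vdac2 and 2.64 ± 0.16 for Vdac1 to Vdac3, and the same exact permutation p. Vdac1 thus stood first among the isoforms in every mouse, whichever gene length was used. Of the other lengths tried, which were the longest coding transcript, the coding length and none, the first gave the smallest ratios, with means on the log2 scale of 1.03 to Vdac2 and 1.09 to Vdac3 in controls.

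The mean log2 ratio of Vdac2 to Vdac3 was above 0 under all 4 length choices and passed the test under 3 of them. Per kilobase of all exons Vdac2 was above Vdac3 in 8 of 8 control mice, by a log2 ratio of 0.70 ± 0.28, and in 8 of 8 MCU-KO mice, by 0.71 ± 0.24 (adjusted p = 0.0078 each, exact sign-flip permutation test). All exons together span 5420 bases in Vdac3 and 4769 in Vdac2, of which the longest coding transcript takes only 1423 and 1954. Divided by the length of that transcript, Vdac2 had 3085 ± 464 and Vdac3 had 2981 ± 543 normalized counts per kilobase in controls. The log2 ratio was then 0.054 in controls (adjusted p = 0.602) and 0.071 in MCU-KO mice (adjusted p = 0.506), both by the exact sign-flip permutation test. With the coding length it was 0.46 in controls and 0.47 in MCU-KO mice, and with no length correction 0.51 and 0.53, each with an adjusted p of 0.0078 in the same exact permutation test. Gene-level counts do not say which transcripts the reads came from, and so which length applies.

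**Figure D1:**
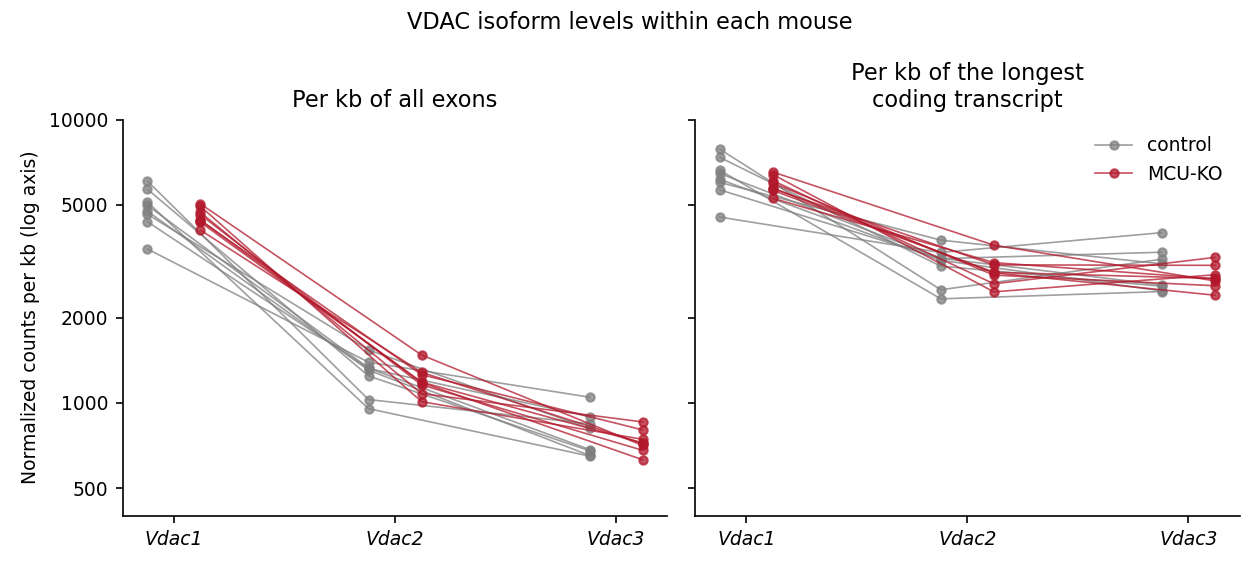
Normalized counts per kilobase (log axis) of Vdac1, Vdac2 and Vdac3 in the 8 control (grey) and 8 MCU-KO (red) mice, with 1 line per mouse, divided by the length of all exons (left) or of the longest coding transcript (right). Every line falls from Vdac1 to Vdac2, while from Vdac2 to Vdac3 the lines fall on the left (mean log2 ratio 0.70 in controls) and run both ways on the right (0.054).

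Expressed as shares of the summed VDAC level per kilobase of all exons, Vdac1 made up 70.1% ± 6.02 in controls and 70.2% ± 2.09 in MCU-KO mice (SD, n = 8 each). Vdac2 made up 18.4% ± 3.67 and 18.5% ± 2.03, and Vdac3 11.5% ± 2.90 and 11.3% ± 1.10. The mean shares of the genotypes thus lay within 1 SD of each other for every isoform. With the longest coding transcript as the length, the Vdac1 share was 51.0% in controls and 50.8% in MCU-KO mice. Control mouse 1 had the lowest Vdac1 share of all mice, 58.9%, and the highest Vdac3 share, 17.7%. The log2 ratio of Vdac1 to Vdac2 differed between genotypes by -0.02 (95% confidence interval -0.37 to 0.33), that of Vdac1 to Vdac3 by -0.0021 (-0.33 to 0.35) and that of Vdac2 to Vdac3 by 0.02 (-0.26 to 0.29). None of the 3 differences passed the test (adjusted p = 0.992 each, exact two-sided permutation test). The intervals leave room for isoform ratios that differ by up to about the size of the spread between control mice.

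**Figure D2:**
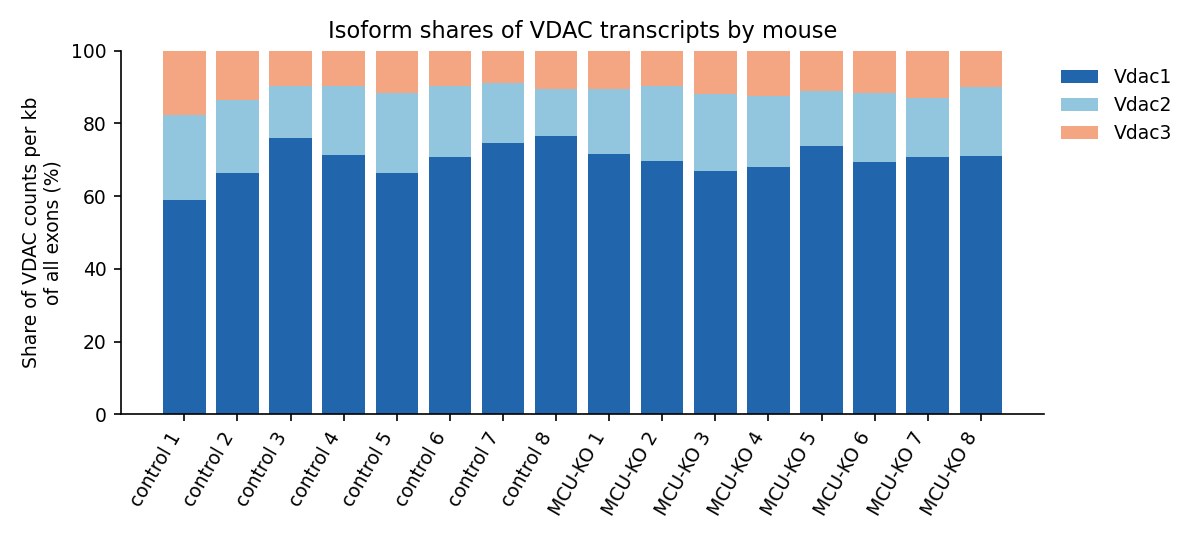
Stacked bars give the share of Vdac1, Vdac2 and Vdac3 in the summed VDAC level of each mouse, in percent of normalized counts per kilobase of all exons, for 8 control and 8 MCU-KO mice. Vdac1 fills most of every bar, with a mean of 70.1% in controls and 70.2% in MCU-KO mice, and the bar of control mouse 1 has the lowest Vdac1 share, 58.9%.

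Of the 4 genes, 0 passed an adjusted p of 0.05 for MCU-KO against control, where 22 of all 12390 genes did (0.178%; edgeR quasi-likelihood test with Benjamini-Hochberg adjustment). At an unadjusted p under 0.05 the count was also 0 of 4, against 547 genes or 4.41% of those tested. Past the adjusted threshold it was 0 of 4 with DESeq2 and limma-voom as well. Over all genes DESeq2 called 90 of 16171 and limma-voom 27 of 12390. The groups of mice overlapped for every one of the 4. The share of all genes tested with such overlap was not computed, so the overlap says little about these genes.

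Vdac1, the VDAC gene of highest level here, had 10668, 11843 and 13208 normalized counts at the lowest, median and highest of the MCU-KO mice, a mean of 11966 ± 845 (SD, n = 8). All 8 MCU-KO mice lay inside the range of the controls. The log2 fold change was -0.10 (SE 0.09, 95% confidence interval -0.29 to 0.10; edgeR adjusted p = 1.00), an interval of an 18.3% decrease to a 6.92% increase. The spread between mice was 7.06% of the mean in MCU-KO and 16.2% in controls, a difference that was not tested. Without control mouse 1, which had the lowest count, the log2 fold change was -0.15, and without control mouse 8, which had the highest, it was -0.04.

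Vdac2, the isoform that retains BAK, had 4818, 5637 and 7041 normalized counts at the lowest, median and highest of the MCU-KO mice, a mean of 5739 ± 673. These values again fell within the control range. The log2 fold change was -0.07 (SE 0.10, 95% confidence interval -0.29 to 0.14; edgeR adjusted p = 1.00). Vdac3, the least studied isoform, had 3415, 3907 and 4644, a mean of 3973 ± 381. Only the lowest MCU-KO mouse, mouse 8, lay below the controls. Its log2 fold change was -0.09 (SE 0.11, 95% confidence interval -0.32 to 0.14; edgeR adjusted p = 1.00), and without control mouse 1, the highest of all 16 for Vdac3, it was -0.02.

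Ghitm had 8885, 11567 and 16185 normalized counts at the lowest, median and highest of the MCU-KO mice, a mean of 12171 ± 2171. The MCU-KO range enclosed that of the controls, with MCU-KO mouse 2 highest and MCU-KO mouse 8 lowest. The log2 fold change was 0.12 (SE 0.11, 95% confidence interval -0.11 to 0.35; edgeR adjusted p = 1.00), an interval of a 7.06% decrease to a 27.5% increase. Without MCU-KO mouse 2 it was 0.05, and without MCU-KO mouse 8, which also had the smallest library, it was 0.18. The estimates of the VDAC genes lay below 0 and that of Ghitm above it in each of the 26 alternatives tried per gene. No alternative brought any of the 4 past the threshold. All alternatives refit the same mice and every interval includes 0, so the constant sign is not read as a direction.

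**Figure D3:**
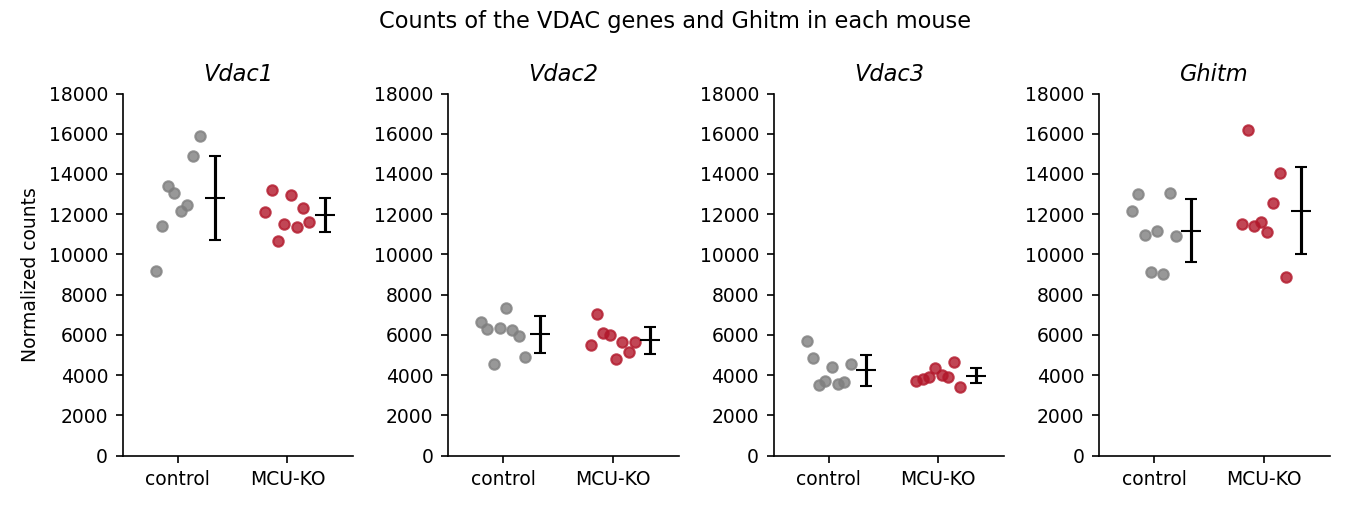
Normalized counts of Vdac1, Vdac2, Vdac3 and Ghitm in each of the 8 control (grey) and 8 MCU-KO (red) mice, with the mean and SD beside the points, which are spread sideways by mouse number only to keep them apart. The groups overlap in every panel, and the widest gap between means, that of Ghitm (11184 against 12171), is smaller than the SD of either group.

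Ghitm was next set beside the rest of its family in control mice, again per kilobase and within each mouse. Grina, also called Tmbim3, had the highest level, 6948 ± 592 normalized counts per kilobase of all exons, against 2978 ± 413 for Ghitm (SD, n = 8). Tmbim4, a Golgi member, had 2033 ± 343, Faim2, known as a neuronal inhibitor of death receptor signalling, 696 ± 43.1, Tmbim6, the Bax inhibitor of the endoplasmic reticulum, 667 ± 96.6, and Tmbim1 38.0 ± 19.2. Ghitm was thus second of 6 by this length. It was below Grina in 8 of 8 mice (mean log2 ratio -1.23 ± 0.21) and above Tmbim4 in 8 of 8 (0.56 ± 0.30). It was above Faim2 by 2.09 ± 0.23, Tmbim6 by 2.16 ± 0.36 and Tmbim1 by 6.46 ± 0.89, each in 8 of 8 mice. All 5 ratios had an adjusted p of 0.0078 in the exact two-sided sign-flip permutation test. The place next to Tmbim4 turned with the length. Per kilobase of the longest coding transcript Tmbim4 had 5804 ± 980 and Ghitm 3508 ± 487, a log2 ratio of -0.72 (adjusted p = 0.0078, exact sign-flip permutation test). The other 4 ratios kept their direction and passed the test under every length tried, with log2 ratios of -1.25 to -0.37 for Grina and 0.22 to 2.09 for Faim2.

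Between genotypes 0 of the 6 TMBIM genes passed the test with edgeR, DESeq2 or limma-voom, and 0 had an unadjusted p under 0.05 with edgeR, beside 0.178% and 4.41% of all genes tested with edgeR, so that counts of 0 among 6 genes say little about the family. Grina had a log2 fold change of -0.15 (SE 0.09), Faim2 -0.13 (SE 0.08), Tmbim4 -0.03 (SE 0.11), Tmbim6 0.03 (SE 0.13) and Tmbim1, at its low level, -0.46 (SE 0.43; edgeR adjusted p = 1.00 for each). Ghitm had the highest estimate of the family, with intervals that overlap those of all the others, and whether it differs from them was not tested.

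**Figure D4:**
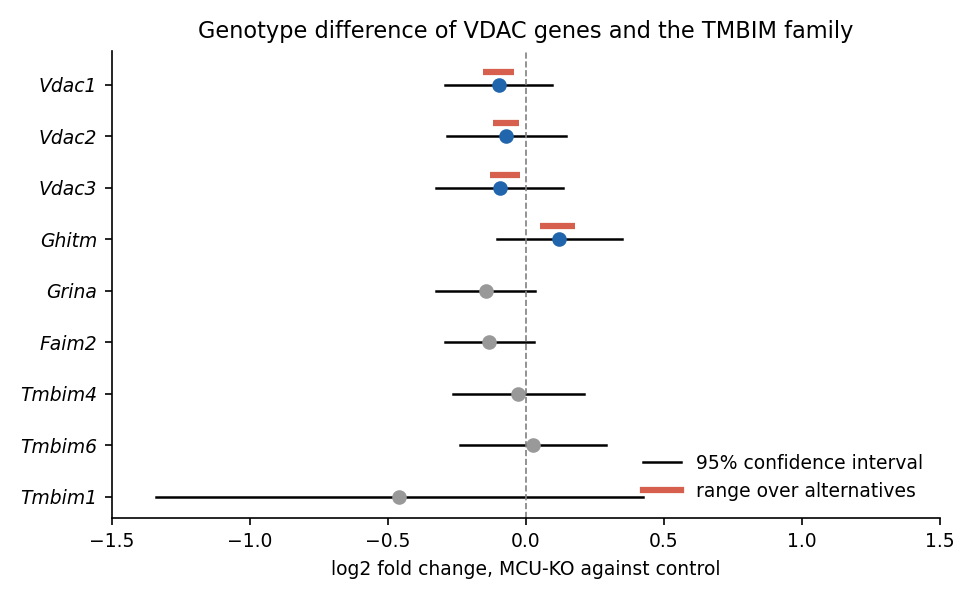
Points give the log2 fold change of MCU-KO against control (edgeR, 8 mice per group) and black lines its 95% confidence interval, for the VDAC genes and Ghitm (blue) and the other TMBIM genes (grey); red bars give the range over the 26 alternatives for the first 4 genes. Every black line crosses 0, with Ghitm at 0.12 and Vdac1 at -0.10.

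Across the 16 mice, with the genotype means removed, none of the 6 pairs of the 4 genes varied together past the threshold. Vdac3 and Ghitm had the highest correlation, a Pearson r of 0.478 (permutation p = 0.0542, adjusted 0.280) and a Spearman rho of 0.447 (permutation p = 0.0849, adjusted 0.255), and r was 0.509 within controls and 0.523 within MCU-KO mice. Without the 2 mice farthest from the median of Vdac3 it was 0.413. Vdac1 and Vdac3 had r = -0.468 (permutation p = 0.140, adjusted 0.280; rho -0.300, permutation p = 0.297, adjusted 0.420), which became -0.342 without the 2 farthest mice and -0.05 without control mouse 1 alone. Without control mouse 8 alone it was -0.655 (permutation p = 0.0269, adjusted 0.161). Within controls r was -0.618 and within MCU-KO mice 0.158. Vdac1 and Vdac2 had r = -0.446 (permutation p = 0.136, adjusted 0.280; rho -0.506, permutation p = 0.0566, adjusted 0.255), -0.259 without the 2 farthest mice, -0.580 within controls and -0.0653 within MCU-KO mice. Whether r differs between genotypes was not tested. The other 3 pairs had r between 0.0645 and 0.226 with adjusted permutation p from 0.598 to 0.810. Their r without the 2 farthest mice was 0.107 to 0.322, and their rho 0.112 to 0.271 with adjusted permutation p from 0.420 to 0.684. Within controls and within MCU-KO mice r was -0.151 and 0.515 for Vdac1 and Ghitm. It was 0.0422 and 0.440 for Vdac2 and Ghitm, and 0.338 and -0.167 for Vdac2 and Vdac3.

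Genes with the most similar pattern over the 16 mice were picked by Pearson r among 8936 genes with at least 10 counts in every mouse. For Vdac1 these were Mark4, a microtubule-affinity kinase (r = 0.857), Bcat1, a cytosolic branched-chain aminotransferase (0.823), and Med8, a Mediator subunit (0.823). For Vdac2 they were Hdac5, a class II histone deacetylase (0.863), Gfod2 (0.822) and Rbm28, an RNA-binding protein (0.820). For Vdac3 they were Slc25a4, the ADP/ATP carrier of the inner membrane (0.831), Mrps27, a mitochondrial ribosomal protein (0.829), and Dnaja2, a chaperone of the Hsp40 family (0.827). For Ghitm they were Susd5 (0.842), Nudc (0.822) and Ptges2 (0.813). These are the top of 8936 correlations from libraries that share their depth and dissection, and they are given as a description. The share of genes with r over 0.6 was 0.996% for Vdac2 to 1.63% for Ghitm.

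Genes that work with the VDACs and Ghitm were followed in lists by role, and of the 72 genes tested in all 7 lists, 0 passed the test in either direction with edgeR, DESeq2 or limma-voom, and 5 had an unadjusted p under 0.05 with edgeR. Over all 12390 genes the edgeR shares were 0.178% past the threshold and 4.41% at an unadjusted p under 0.05. Over all genes tested, 6241 estimates were above 0 and 6149 below, with a median log2 fold change of 0.0025. Among proteins that dock on or regulate VDAC, 14 of 15 were tested, with a median of -0.05. The smallest p was that of Gsk3b, a kinase known to phosphorylate VDAC, at -0.20 (SE 0.11). By level Bax was highest at 1741 normalized counts per kilobase and Bak1 lowest, at 19.8 normalized counts before division by length, and Hk2 did not pass the filter on low counts. For adenine nucleotide exchange and the permeability transition, 6 of 8 genes were tested with a median of -0.08. Slc25a4 was their most abundant gene at 17961 per kilobase, Ppif the least, and Ckmt1, the creatine kinase of the intermembrane space, had the smallest p at -0.25 (SE 0.19). Outer membrane import and assembly of beta-barrels, on which VDAC insertion depends, had 13 of 13 genes tested with a median of -0.01. Tomm70a, a receptor of the import complex, had 0.30 (SE 0.14), the only one of these 13 at an unadjusted p under 0.05. Tomm7 was their most abundant gene and Mtx3 the least.

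Of the genes of ER-mitochondria contacts, where Ca2+ is handed to VDAC, 15 of 16 were tested, with a median of -0.02. Itpr1, the main neuronal IP3 receptor, had a log2 fold change of -0.82 (SE 0.32; edgeR adjusted p = 0.973). It was 1 of 3 genes of the 15 at an unadjusted p under 0.05, where 4.41% of all genes tested were. The others, named after their values were seen, were the chaperone Canx at 0.30 and Bcap31, the most abundant of the list per kilobase, at -0.27. Itpr2 was the least abundant. Inner membrane exchangers and the proteases and partners of Ghitm had 11 of 11 tested with a median of 0.01. Chchd2, known as a binding partner of Ghitm, was highest at 4888 per kilobase, with a log2 fold change of 0.04, and Slc8b1, the Na+/Ca2+ exchanger of the inner membrane, was lowest. Yme1l1, an inner membrane protease, had the smallest p of these 11 at 0.52 (SE 0.24; edgeR adjusted p = 1.00). The uniporter complex itself had 7 of 7 tested with a median of 0.06, Smdt1, the regulator that links pore and gatekeepers, being the most abundant and Mcub the least.

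Library totals ran from 14129527 counts in MCU-KO mouse 8, with all others at or above 18999107, to 22016362. Mcu had 120 at the lowest, 401 at the median and 828 at the highest control mouse and 5.82, 246 and 410 in MCU-KO mice. The groups thus overlapped, with a log2 fold change of -1.19 (SE 0.59, edgeR unadjusted p = 0.0569, adjusted p = 1.00). The paper reports that the deletion was verified by quantitative PCR on RiboTag mRNA and by imaging of mitochondrial Ca2+. Which exons are floxed is not given in the sources used here, and counts over the whole gene may include the exons that remain. All 11 dopaminergic neuron markers were detected in every mouse, with a summed level of 13212 to 20984 CPM, counts scaled to the size of the library. Markers of other cells were present too, and VDAC genes and Ghitm are used by all of these cells. The 7 oligodendrocyte markers summed to 2825 to 5624 CPM in controls and 3355 to 6722 in MCU-KO mice, the 8 astrocyte markers to 460 to 905 and 544 to 1129, and the 7 microglial markers to 46.4 to 145 and 41.5 to 262. The 5 endothelial markers summed to 7.21 to 36.9 CPM and 5.91 to 21.2, the 4 GABAergic neuron markers to 149 to 327 and 137 to 343, and the 2 glutamatergic neuron markers to 13.0 to 49.9 and 12.3 to 107. Of the 42 markers tested between genotypes, 0 passed with edgeR, DESeq2 or limma-voom, and 1, the astrocyte glutamate transporter Slc1a2 (log2 fold change 0.31, SE 0.15; named after its values were seen), had an unadjusted p under 0.05 with edgeR, beside 0.178% and 4.41% of all genes tested with edgeR. With the glial markers as a covariate the log2 fold changes were -0.06 for Vdac1, -0.03 for Vdac2, -0.10 for Vdac3 and 0.15 for Ghitm, and with the dopaminergic markers -0.09, -0.07, -0.08 and 0.13. In such pooled tissue, fewer neurons with the tag and less mRNA per neuron cannot be told apart.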

How the data were processed

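Members and gene lists were chosen with earlier results of these data known. Reads were trimmed (cutadapt in the study's methods, Trim Galore in the submitters' processing notes), aligned to mm10 with STAR and counted per gene with HTSeq, and the authors deposited these raw counts, 1 whole number per gene and mouse. Tool versions, strand setting and annotation release: not given in the sources used here. Symbols (for 24942 of 25006 identifiers), lengths, coordinates and sequences came from GENCODE M21 on GRCm38.

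Genotypes were compared with edgeR 4.0.16 in R 4.3.3 (filterByExpr, TMM, estimateDisp, glmQLFit, glmQLFTest; Benjamini-Hochberg over 12390 genes, threshold 0.05), after the script was tested on simulated data. Normalized counts used size factors of DESeq2 1.42.0, and limma 3.58.1 served as an alternative. Levels of different genes were compared as log2 ratios of counts per kilobase within a mouse, with a pseudocount of 1 for TMBIM ratios and 256 sign patterns. P-values were adjusted over 6 VDAC ratios, 5 TMBIM ratios, 3 genotype differences and 6 correlations (100000 permutations within genotype). Alternatives were other tests, normalizations, filters, lengths, covariates, a block for mouse number and each mouse left out.

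At 14129527 to 22016362 counts per library, 3 counts, taken as the smallest detectable amount, equal 0.136 to 0.212 CPM, a floor for counting error alone, because no molecular identifiers mark duplicate reads. Each library is a separate mouse.

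Named were the members, Mcu, the tested TMBIM genes, in each other list the genes past the threshold or else the gene of smallest p, its genes of highest and lowest control level per kilobase, the 3 genes most like each member, and genes that share 50-base stretches with a member.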

Additional observations from a re-analysis of the deposited data

Results flagged for a closer look

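None of the VDAC genes or Ghitm had a mouse far from the rest of its group. Of 28 groups of 8 mice examined with Dixon's test (critical ratio 0.526), 4 had a mouse whose gap to its nearest neighbour was too large a part of the range, where chance gives about 1.4. MCU-KO mouse 7 had 16867 normalized counts of Grina, and the next mouse had 13441. MCU-KO mouse 3 had 7117 normalized counts of Tmbim4, and the next had 5268. Control mouse 6 had 4008 normalized counts of Tmbim6, and the next had 3162. The library of MCU-KO mouse 8 held 14129527 counts, and the next smallest MCU-KO library held 19897268. Without that mouse the log2 fold changes of MCU-KO against control were -0.09 for Vdac1, -0.06 for Vdac2, -0.06 for Vdac3 and 0.18 for Ghitm.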

How the results depend on the processing

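The genotype comparisons of the 4 genes kept their sign and stayed short of the threshold under all 26 alternatives each. The log2 fold changes were -0.153 to -0.0439 for Vdac1 and -0.118 to -0.0241 for Vdac2. They were -0.131 to -0.0217 for Vdac3 and 0.0530 to 0.179 for Ghitm. The smallest adjusted p was 0.897 for Vdac1 and 0.839 for Ghitm, by edgeR without its filter. By limma-voom it was 0.936 for Vdac2 and 0.929 for Vdac3. Over all genes edgeR with the mouse number as a replicate block called 14 of 12390, in place of 22, and leaving out 1 mouse gave 18 to 24. DESeq2, run without the edgeR filter on low counts, called 90 of 16171 genes, and limma-voom called 27 of 12390. Without its filter edgeR called 21 of 16990, so the filter alone does not account for the higher DESeq2 count. With the block for mouse number the 4 log2 fold changes were -0.08, -0.06, -0.08 and 0.11. Correlations between same-numbered mice ran from -0.061 to 0.031, and 0 of 8 correlated best with their own number. The labels give no batch, so whether same-numbered mice were prepared together is not known. With the longest coding transcript as length the log2 ratio of Vdac2 to Vdac3 fell short of the threshold, at 0.054 in controls and 0.071 in MCU-KO mice, and that of Ghitm to Tmbim4 turned to -0.72; the division by another length is the whole of that change. Leaving out 1 mouse moved the genotype difference of the log2 ratio from -0.107 to 0.0692 for Vdac1 to Vdac2, from -0.131 to 0.0583 for Vdac1 to Vdac3 and from -0.0425 to 0.0708 for Vdac2 to Vdac3. It moved r from -0.0651 to 0.263 for Vdac1 and Ghitm, from -0.00484 to 0.304 for Vdac2 and Ghitm and from -0.00669 to 0.289 for Vdac2 and Vdac3. The sign of each of these ratio differences and correlations changed with the mouse left out, so no direction is read from them. Depth limited none of the 4 genes.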

Other observations

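The log2 ratio of Ghitm counts to the summed counts of the VDAC genes, with no division by length, was looked at after the values were seen. It was -1.05 ± 0.21 in control mice, from -1.34 to -0.793, and -0.85 ± 0.20 in MCU-KO mice, from -1.22 to -0.573 (SD, n = 8 each). The difference was not tested. The groups overlapped.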
